A study of Homo sapiens with 12 samples.

Results

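HT1080 is a human fibrosarcoma cell line whose cells respond to type I interferon. The response described here is that of HT1080 cells that stably express dCas9, a Cas9 protein without cutting activity, together with a guide RNA against an LTR8B element, an endogenous retroviral long terminal repeat in the first intron of SP140 (genotype label dCas9_CRISPRi_LTR8B.SP140). Cells given 10 U/mL of interferon beta (IFNB) over 4 h were compared with untreated cells of the same line, with 4 libraries in each group, chosen by genotype and treatment label. The sample titles name these cells SP140 KD (knockdown). These 8 libraries are part of 12, and the other 4 come from dCas9 cells with a guide against GFP (dCas9_CRISPRi_GFP), with 2 untreated libraries and 2 given the same IFNB treatment. All groups grew in medium with blasticidin, which selects for dCas9, and puromycin, which selects for the guide. The cells with the 2 guides are called LTR8B cells and GFP cells below. The labels do not say whether either line is a clone or a pool, nor whether replicates were separate cultures, so every p-value measures only the spread between these samples. Untreated LTR8B cells are the reference for every value unless GFP cells are named.

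IFNB binds a receptor made of IFNAR1 and IFNAR2, whose associated kinases JAK1 and TYK2 phosphorylate transcription factors of the STAT family, among them STAT2. With IRF9 these form the complex ISGF3, which binds the interferon-stimulated response element (ISRE) in promoters. STAT dimers bind a second element, the GAS. The genes so induced encode sensors of viral RNA and DNA, proteins that block viral replication, the machinery of antigen presentation, chemokines, and the pathway's own components and inhibitors. SP140 itself is a bromodomain protein of nuclear bodies whose family members SP100, SP110 and SP140L are known interferon-responsive genes.

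Totals ran from 12404270 counts in LTR8B IFNB replicate 3 to 28801579 in untreated replicate 3, and the other 6 LTR8B libraries held 19354070 to 21772444. Genes were kept where counts were high enough in at least one group, which left 16393 of 60669, and levels are given as counts per 1000000 counts (CPM) after TMM scaling. A count of 0 in a single LTR8B library allows up to 3 counts, or 0.100 to 0.244 CPM, and this limit covers counting error only. SP140 stood at 1.84, 0.515, 1.51 and 1.13 CPM in the untreated LTR8B libraries and at 1.48, 1.07, 1.46 and 0.901 CPM with IFNB, against 29.8 to 32.04 CPM in the 4 GFP libraries. In the 8 LTR8B libraries principal component 1 (39.7% of variance) separated the treatments, and component 2 (13.5%) had both libraries numbered 4 at one end (-25.1 and -24.2) and IFNB replicate 3, the library with the fewest counts, at the other (24.3). Mesenchymal markers summed to 3552 to 4265 CPM untreated and 3870 to 4119 CPM with IFNB, nearly all of it vimentin (VIM), while COL1A1 was at 1.43 CPM and LUM and DCN were each at 4 counts or fewer per group over 4 libraries. Epithelial markers summed to 0.553 to 1.39 CPM untreated and 0.569 to 1.07 CPM with IFNB, and endothelial markers to 8.74 to 11.6 and 7.69 to 13.6 CPM. Haematopoietic markers summed to 1032 to 1223 CPM untreated and 1134 to 1238 CPM with IFNB, nearly all of it LCP1, while PTPRC, which encodes CD45, had 3 counts untreated and 1 with IFNB. In these bulk libraries a change in RNA per cell cannot be told apart from a change in the share of cells that express a gene.

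Within 4 h of IFNB the LTR8B cells raised far more genes than they lowered, and raised them further. Of 16393 genes tested, 737 (4.5%) passed an edgeR adjusted p of 0.05, with 658 higher (4.01%) and 79 lower (0.482%). The higher genes rose by a median of 0.71 on the log2 scale and the lower genes fell by a median of 0.35, while the median over all genes tested was -0.01. Every amount by which a gene is said below to have risen or fallen is a log2 fold change, written log2 in brackets. At least a 2-fold change was reached by 248 higher and 4 lower genes, at least 4-fold by 129 higher genes (0.787%) and 1 lower, at least 32-fold by 31 higher genes and at least 100-fold by 12. Treated and untreated libraries did not overlap for 712 of the 737 genes, against 9.12% of all genes tested. As a description of genes picked for being higher, these 658 took 2.86% to 2.96% of all counts in the 4 untreated libraries and 5.78% to 6.15% with IFNB. The 129 genes raised at least 4-fold took 0.138% to 0.149% of counts untreated and 1.82% to 2.06% with IFNB, with the lowest treated share in replicate 4. The 4 genes lower by at least 2-fold, named because they complete the count, were all at low levels, namely the readthrough transcripts JMJD7-PLA2G4B and MSH5-SAPCD1 and 2 genes without a symbol, ENSG00000286909.1 (log2 -1.08) and ENSG00000282944.1 (log2 -2.09, from 0.665 to 0.161 CPM). Without both libraries numbered 4, a check chosen after seeing the data, 606 genes passed, 552 higher and 54 lower. The number lower was 43, 42 and 40 without IFNB replicates 1, 2 and 3 in turn and 165 without the filter on low counts. With replicate numbers taken as a block, 1040 genes passed over all libraries, 223 of them lower. Over the 8 LTR8B libraries alone the block gave 1029 genes, 220 of them lower. Without untreated replicate 4, 11 genes rather than 4 were lower by at least 2-fold.

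**Figure D1:**
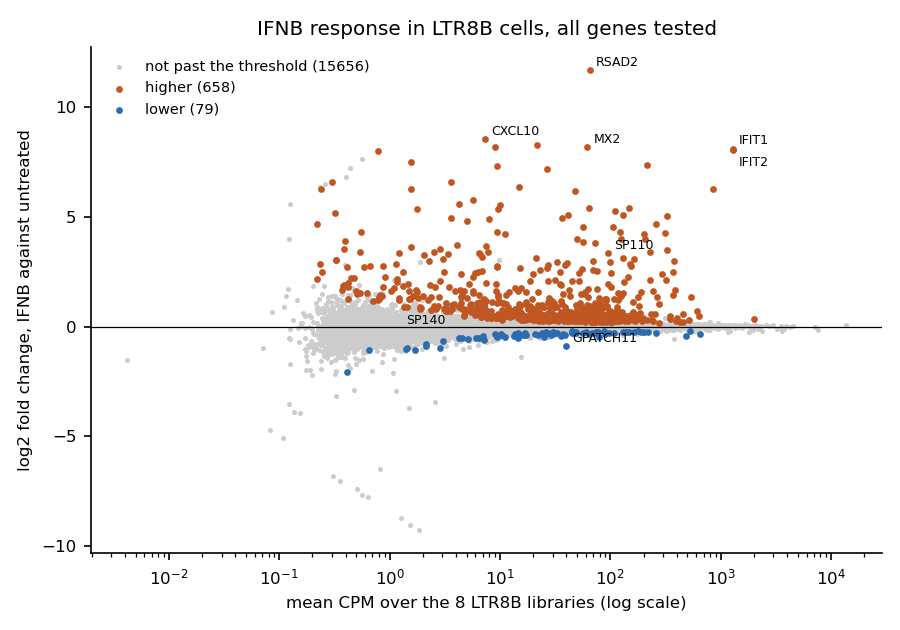
Each point is 1 of 16393 genes, with its mean CPM over the 8 LTR8B libraries on a log axis and its log2 fold change with IFNB on the vertical axis. The 658 higher genes reach up to RSAD2 at 11.71, whereas the lower genes stay close to the line at 0, all but 4 of them above -1 and GPATCH11 at -0.88; gray points far below 0 did not pass the threshold.

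The gene with the largest increase was RSAD2 (ENSG00000134321.12, chr2:6865806-6898239 on hg38, plus strand), which encodes viperin, an enzyme that makes a chain-terminating nucleotide and limits the replication of many viruses. RSAD2 stood at 0, 0, 0.100 and 0 CPM in the untreated libraries and at 131, 127, 133 and 132 CPM with IFNB. All treated libraries lay within a narrow range, and the untreated total was 3 counts over 4 libraries against 9415 with IFNB, a ratio of 3932 with an exact 95% counting interval of 1345 to 19069. The increase was 11.71 on the log2 scale with an SE of 0.19 (edgeR adjusted p = 9.36e-18). Every SE given here is the absolute log2 fold change divided by the square root of the edgeR F statistic. For genes with few untreated counts, such as RSAD2 and CXCL10, it is narrower than the counting interval and understates the uncertainty of the fold change.

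CXCL10 (chr4:76021117-76023497, minus strand), a chemokine that attracts activated T cells, was at 0.0461, 0, 0.0670 and 0 CPM before treatment and reached 13.01, 18.03, 15.7 and 12.03 CPM after it. Its untreated libraries also held 3 counts in all, so its ratio of 443 has a wide counting interval, 151 to 2152. The increase was 8.55 on the log2 scale with an SE of 0.30 (edgeR adjusted p = 3.33e-13). OASL (chr12:121019111-121039242, minus strand), a homolog of the 2-5A synthetases that binds RIG-I, was at 0.0461, 0.206, 0.201 and 0.0514 CPM before treatment and reached 42.2, 41.8, 51.7 and 38.5 CPM after it, an increase of 8.29 on the log2 scale with an SE of 0.21 (edgeR adjusted p = 6.25e-15). IFI44L (chr1:78619922-78646145, plus strand), a common marker of interferon exposure, went from 0, 0.155, 0.0335 and 0.0514 CPM to 17.9, 17.7, 18.6 and 17.2 CPM, with a log2 fold change of 8.18. No treated library of these 3 genes overlapped an untreated one, and the treated values of CXCL10 spread the most relative to their mean.

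IFIT1 (chr10:89392546-89406486, plus strand), which binds viral RNA with foreign cap structures, was measurable before treatment at 8.62, 8.24, 11.9 and 7.35 CPM, and reached 2563, 2613, 2776 and 2303 CPM with IFNB. Its partner IFIT2 (chr10:89283694-89309276, plus strand) went from 10.0, 9.32, 9.41 and 8.95 CPM to 2509, 2559, 2585 and 2556 CPM. The increases were 8.13 (SE 0.13, edgeR adjusted p = 4.7e-16) and 8.08 (SE 0.079, edgeR adjusted p = 1.5e-20) on the log2 scale, and in both genes no treated library came near an untreated one. MX2 (chr21:41361943-41409390, plus strand), a dynamin-like GTPase that blocks nuclear entry of HIV, went from 0.461, 0.309, 0.469 and 0.411 CPM to 148, 112, 139 and 94.0 CPM, a wider spread, and rose by 8.17. OAS2 (chr12:112978395-113011723, plus strand), which makes the 2-5A signal that activates RNase L, went from 1.98, 2.99, 2.91 and 2.37 CPM to 433, 421, 449.8 and 413 CPM and rose by 7.37.

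The remaining members of the 10 largest increases were the mitochondrial protein IFI27, which rose by 7.31 from 0.108 ± 0.0944 to 18.6 ± 3.77 CPM (SD, n = 4 in each group), and GBP1P1, a pseudogene in the guanylate-binding protein cluster. GBP1P1 was counted once over the 4 untreated libraries and 231 times with IFNB, a ratio of 289 with an interval of 51.4 to 11479, and because pseudogene copies may share reads with GBP1 its value is uncertain. The plot of levels by library shows these 10 genes beside the 10 largest decreases.

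**Figure D2:**
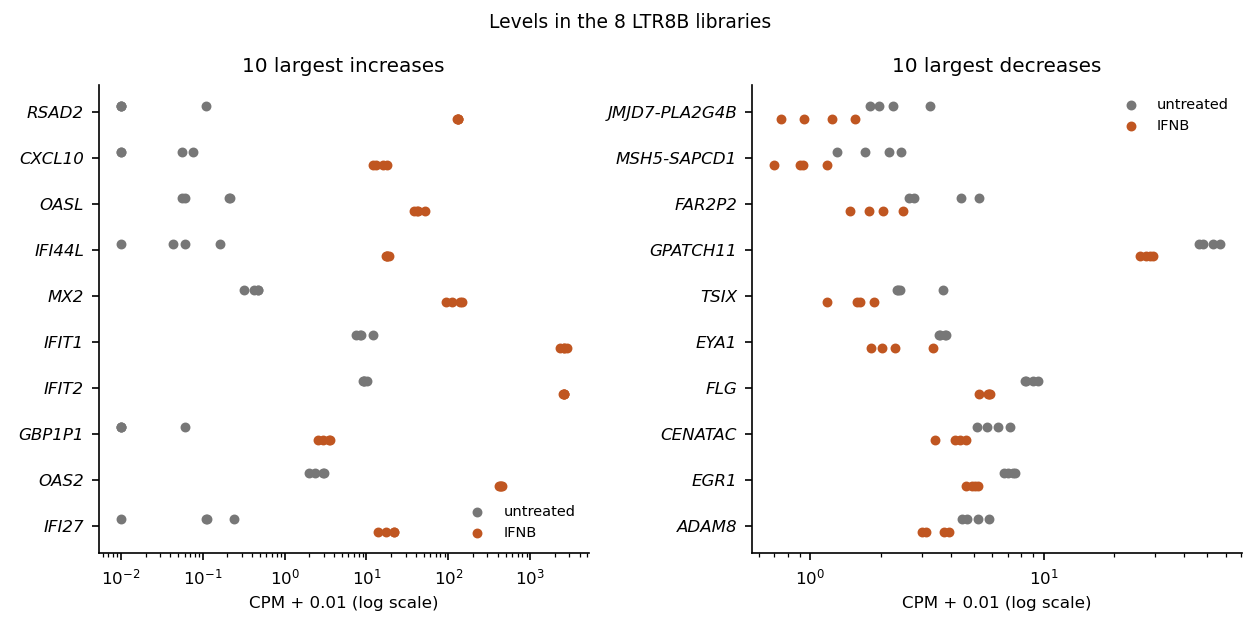
Levels in each of the 4 untreated (gray) and 4 IFNB (orange) LTR8B libraries, as CPM plus 0.01 on a log axis, for the 10 largest increases (left) and 10 largest decreases (right). Only genes without overlap between the groups could enter either panel. Treated libraries of the increases lie far above the untreated ones, with RSAD2 going from at most 0.100 to at least 127 CPM. The groups lie closer together in the decreases, with GPATCH11 going from at least 46.2 to at most 29.3 CPM.

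Promoter sequences of 9 raised genes are shown because each holds the core of the element that ISGF3 binds, and were chosen among the 10 largest increases and 10 highest levels after the search. No listed promoter was matched for OASL, MX2, IFIT2, OAS2 and GBP1P1, the listed promoter of RIGI held 0 matches, and of the 2 listed for RSAD2 only the downstream one held a match. Those of DTX3L and TRIM21 held matches that are not printed. Promoters 250 bases before to 50 bases after the start were taken from RefSeq (GRCh38.p14), and 11407 of the tested genes were matched by symbol. The ISRE core was searched as GAAA, 2 bases of any kind and GAAA, and the GAS core as TTC, 3 bases of any kind and GAA, on both strands, and the 2 patterns may overlap. Stretches with 1 base between the GAAA repeats were not counted. Such stretches occur in the listed promoter of RIGI and the upstream one of RSAD2, so 0 matches means only that this pattern is absent. The stretches below read 5′ to 3′ along the gene's own strand, and capitals mark the ISRE core, which reads TTTC, 2 bases and TTTC where the match is on the other strand. They begin with RSAD2 (chr2:6877612-6877661, plus strand), CXCL10 (chr4:76023689-76023738, minus), IFI44L (chr1:78620264-78620404, plus), IFIT1 (chr10:89392487-89392549, plus) and IFI27 (chr14:94110608-94110670, plus) from the largest increases.
RSAD2: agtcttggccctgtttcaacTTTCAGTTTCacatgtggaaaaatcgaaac
CXCL10: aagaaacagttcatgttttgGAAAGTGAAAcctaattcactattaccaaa
IFI44L: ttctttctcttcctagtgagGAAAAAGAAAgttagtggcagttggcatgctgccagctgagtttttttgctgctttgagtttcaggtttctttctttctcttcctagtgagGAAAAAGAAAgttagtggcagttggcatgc
IFIT1: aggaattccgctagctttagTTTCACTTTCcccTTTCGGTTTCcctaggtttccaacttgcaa
IFI27: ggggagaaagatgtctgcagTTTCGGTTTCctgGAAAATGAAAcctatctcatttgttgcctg
The other 4 are from genes with the highest treated levels, which are IFIT3 (chr10:89332415-89332507, plus strand, the downstream of its 2 listed starts), ISG15 (chr1:1013364-1013419, plus), IFI6 (chr1:27672256-27672368, minus) and GBP1 (chr1:89065306-89065355, minus).
IFIT3: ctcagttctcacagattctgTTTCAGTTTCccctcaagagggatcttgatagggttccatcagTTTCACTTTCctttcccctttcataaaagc
ISG15: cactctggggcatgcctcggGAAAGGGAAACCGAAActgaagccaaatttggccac
IFI6: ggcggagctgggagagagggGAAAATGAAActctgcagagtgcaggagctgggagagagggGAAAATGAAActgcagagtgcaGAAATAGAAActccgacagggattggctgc
GBP1: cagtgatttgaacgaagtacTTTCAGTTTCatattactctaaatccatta
IFIT1, IFIT3, IFI27, IFI44L and ISG15 each hold 2 matches in these windows and IFI6 holds 3, while RSAD2, CXCL10 and GBP1 hold 1. In ISG15 the 2 matches overlap, and in IFI44L and IFI6 stretches around the matches are repeated.

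The share of genes with an ISRE core in a listed promoter was highest among the most strongly raised. It was 53.4% among genes raised at least 4-fold (47 of 88 with a promoter), 17.8% among those raised 2-fold to 4-fold (13 of 73) and 13.5% among those raised less (47 of 348). It was 3.64% among lower genes (2 of 55), 3.29% among the 10843 genes not past the threshold and 4.09% over all 11407. The GAS core was found in 27.3%, 21.9% and 8.91% of the 3 classes of raised genes in the same order, in 7.27% of lower genes and in 8.74% overall. Counted over promoters rather than genes, 3.02% of all 16533 held the ISRE core and 6.41% the GAS core. The 152 ISRE matches in promoters of raised genes had a median position 67 bases before the start, and 66.4% of them began 150 to 1 bases before it, against 49.1% of 401 matches in other tested genes. Matches were counted for each listed start, so a site in overlapping promoters of a gene, as in IFI27, enters more than once. A match is a description of letters and not evidence of binding.

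**Figure D3:**
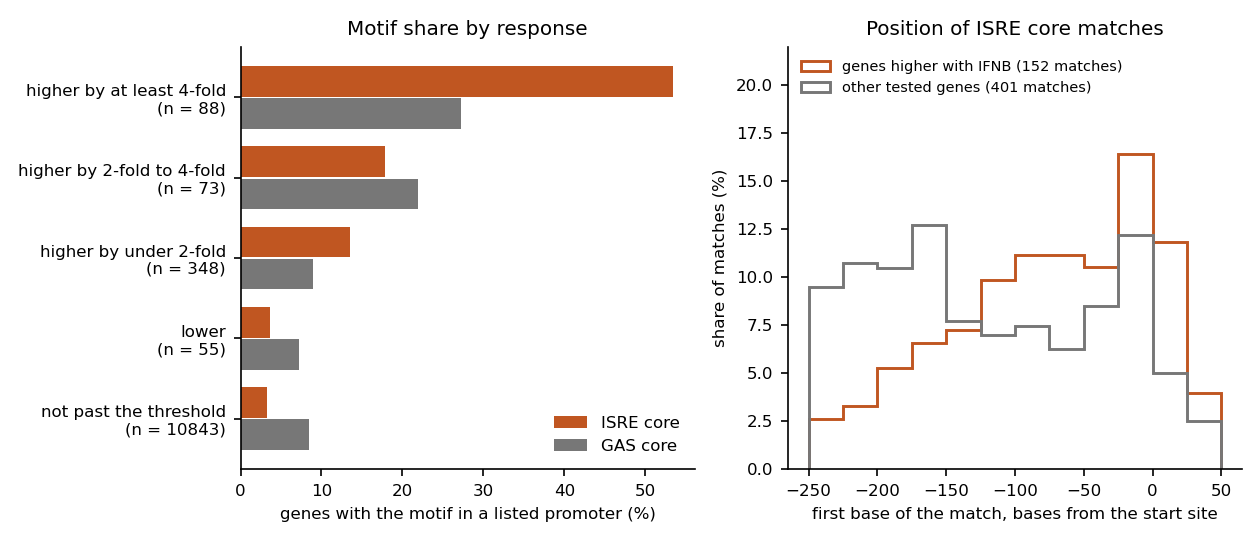
Left, the share of genes with an ISRE core (orange) or GAS core (gray) in a listed promoter, for 5 classes of response, with the number of genes in brackets. The ISRE share is 53.4% in genes raised at least 4-fold and 3.29% in genes not past the threshold. Right, the position of each ISRE match in 25-base bins, as a share of 152 matches in raised genes (orange) and 401 in other tested genes (gray); matches in raised genes lie nearer the start.

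Levels between genes were compared as CPM per kb of merged exons (GENCODE release 29), on the mean of the 4 treated libraries. Among genes raised at least 4-fold, high levels were found for IFIT3 at 636, IFIT2 at 622 and IFIT1 at 556 CPM per kb, followed by ISG15 at 267 and IFI6 at 247. RIGI (145), DTX3L (113), TRIM21 (92.0) and GBP1 (77.5) were also among the 10 highest. RSAD2, with the largest fold change, was lower on this scale, at 27.1 CPM per kb. IFIT3, the adaptor that stabilises IFIT1 on RNA, went from 19.6, 21.2, 24.0 and 22.6 CPM to 1686, 1682, 1683 and 1661 CPM, and its 4 treated values differed by less than those of IFIT1. ISG15, a ubiquitin-like modifier, went from 7.19, 8.29, 6.36 and 7.66 CPM to 271, 271, 284 and 179 CPM, and IFI6, an endoplasmic reticulum protein that hinders flavivirus replication, from 5.26, 5.25, 5.69 and 5.55 CPM to 228, 227, 235 and 165 CPM. In both, IFNB replicate 4 was well below the other 3 treated libraries and still far above every untreated one. Without that library the log2 increases were 5.23 for ISG15 and 5.39 for IFI6, against 5.10 and 5.29 with it.

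Of the 9 receptors and Janus kinases tested, JAK2 and the receptor chain IFNAR2 rose and 7 did not pass, with a list median of 0.10 on the log2 scale. JAK2 went from 15.7, 14.3, 15.4 and 16.8 CPM to 23.4, 23.6, 24.8 and 27.1 CPM (log2 fold change 0.67, edgeR adjusted p = 1.32e-05), and IFNAR2 from 13.5 ± 1.402 to 18.8 ± 0.692 CPM (SD, n = 4 in each group). Of 12 STAT and IRF transcription factors tested, 6 rose and none fell. IRF9, a DNA-binding subunit of ISGF3, was at 4.52, 4.89, 5.22 and 3.70 CPM before treatment and reached 116, 109.8, 112 and 96.6 CPM, an increase of 4.55 on the log2 scale with an SE of 0.10 (edgeR adjusted p = 6.23e-16). Its subunit STAT2 went from 49.5 ± 3.64 to 239.9 ± 15.7 CPM and rose by 2.28. IRF1, which binds ISRE-like sites on its own, rose by 1.60 from 29.3 ± 3.05 to 88.8 ± 5.88 CPM. IRF7, known to amplify the response in many cell types, had 1 count over the 8 libraries and was not tested, a gene singled out after its values were seen. Of 9 tested inhibitors of the pathway, 2 rose. USP18, which removes ISG15 from proteins and blocks the receptor, went from 1.66, 0.876, 1.31 and 1.18 CPM to 97.3, 90.6, 109.9 and 79.7 CPM and rose by 6.21 (SE 0.14, edgeR adjusted p = 6.15e-16). SOCS1, an inhibitor of Janus kinases, rose by 1.95 from 0.612 ± 0.214 to 2.34 ± 0.392 CPM.

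Several families of antiviral effectors rose in every member tested. All 4 IFIT genes tested rose, with a median of 7.17, as did all 5 genes of the OAS and RNase L list (median 4.30), both MX genes, all 6 guanylate-binding proteins tested (median 3.20), all 4 genes of the IFITM and tetherin list tested (median 2.63), and RSAD2, CMPK2 and SAMHD1 together. IFIT5 was the least changed of the IFIT family, from 33.9 ± 1.86 to 292 ± 10.0 CPM (log2 fold change 3.11). OAS1 and OAS3 rose by 4.30 and 3.41, less than OAS2 and OASL. MX1, which traps incoming viral nucleocapsids in the cytoplasm, had lower levels, from 2.40, 1.03, 1.81 and 2.16 CPM to 11.6, 9.34, 10.8 and 8.27 CPM, and its increase of 2.42 (SE 0.18) stood beside 8.17 (SE 0.21) for MX2. GBP1, a GTPase that coats bacteria and vacuoles, went from 24.5, 18.2, 21.7 and 18.6 CPM to 409, 365, 391 and 382 CPM (log2 fold change 4.22), with GBP4 at 4.91, GBP5 at 3.38 and GBP3 at 3.01. IFITM1 and tetherin (BST2), which act at the plasma membrane, rose by 4.97 and 4.24 from low levels. IFITM3 and IFITM2, which act at endosomes, were already at 181 ± 15.2 and 126 ± 11.9 CPM and rose by 1.01 and 0.55. CMPK2, a mitochondrial nucleotide kinase next to RSAD2, went from 0.354 ± 0.180 to 9.76 ± 0.551 CPM, and SAMHD1, which depletes deoxynucleotides, from 26.4 ± 1.39 to 232 ± 17.9 CPM (log2 3.13). The IFITM genes are similar in sequence and may share reads.

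Of the 8 genes in the list around IFI6, IFI27 and IFI44, 6 rose. IFI44 went from 2.67, 2.94, 3.38 and 2.57 CPM to 131, 125, 124 and 119 CPM and rose by 5.41 (SE 0.10, edgeR adjusted p = 3.65e-17), and IFI35 rose by 2.51. SAMD9 and its paralog SAMD9L, which halt translation in poxvirus infection, rose from 19.1 ± 0.957 to 497 ± 28.2 CPM (log2 4.70) and from 6.75 ± 0.588 to 286 ± 9.42 CPM (log2 5.40). All 6 genes of ISG15 conjugation and removal rose, among them the conjugating enzyme UBE2L6 (log2 2.56) and HERC6 (log2 2.68).

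Sensors of nucleic acid rose as well. Of 7 RNA sensors and adaptors tested 6 rose, with a median of 4.00, and the mitochondrial adaptor MAVS did not, at 82.5 CPM untreated and 76.4 CPM with IFNB (edgeR adjusted p = 0.444), a gene named after its value was seen. RIGI, which detects short double-stranded RNA, went from 19.8, 18.7, 16.6 and 20.98 CPM to 645, 599, 649 and 637 CPM, an increase of 5.06 on the log2 scale with an SE of 0.073 (edgeR adjusted p = 1.61e-18). IFIH1 (MDA5), which detects long double-stranded RNA, rose by 4.54 from 8.72 ± 0.845 to 205 ± 12.4 CPM, and DDX60 and DDX60L rose by 4.00 and 3.85. Among 6 DNA sensors tested 5 rose, with the nuclear sensor IFI16 highest in level, from 184 ± 15.1 to 579.9 ± 15.6 CPM (log2 1.66). ZBP1, which senses Z-form nucleic acid, had 3 counts untreated and 218 with IFNB, a ratio of 91.04 with an interval of 30.7 to 445, and AIM2 rose by 2.83.

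All 11 RNA-directed effectors rose (median 2.10). EIF2AK2, the kinase PKR that stops translation on double-stranded RNA, went from 96.1, 78.8, 104 and 93.6 CPM to 509, 468, 509.6 and 499 CPM (log2 2.41). ZC3HAV1, which targets CpG-rich RNA, rose by 2.11, the RNA helicase ZNFX1 by 2.10 and the frameshift inhibitor SHFL by 2.89. Of 7 genes for ADP-ribosyltransferases and their partner DTX3L 6 rose, with PARP9 from 24.4 ± 1.44 to 388 ± 20.1 CPM (log2 3.98), PARP14 from 52.7 ± 3.49 to 599 ± 36.3 CPM (log2 3.51) and DTX3L from 83.2 ± 4.39 to 665 ± 19.2 CPM (log2 2.999). Of 11 antiviral TRIM ubiquitin ligases 10 rose, with a median of 1.79. TRIM21, the cytosolic antibody receptor, went from 22.7 ± 1.48 to 177 ± 14.9 CPM (log2 2.97). In the apolipoprotein L cluster 4 of 5 tested genes rose, led by APOL6 from 14.9 ± 2.29 to 237 ± 9.32 CPM (log2 3.99). The APOBEC3 cytidine deaminases moved less, since 2 of 5 tested rose (median 0.16), APOBEC3F by 1.65 and APOBEC3G by 0.96.

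Antigen presentation rose in its class I branch. Of 11 class I and peptide loading genes tested 10 rose (median 1.37), and all 8 genes of the immunoproteasome and peptide trimming rose (median 0.67). TAP1, a subunit of the peptide transporter, went from 35.04, 40.0, 31.9 and 40.0 CPM to 275, 272, 292 and 219 CPM, an increase of 2.85 on the log2 scale with an SE of 0.095 (edgeR adjusted p = 9.7e-13). NLRC5, the transactivator of class I genes, rose by 2.07, HLA-B by 1.93 and HLA-E by 1.37, with the limit that HLA genes may share reads. The immunoproteasome subunits PSMB9 and PSMB8 rose by 2.39 and 1.34, the aminopeptidase LAP3 by 1.21 and the proteasome activator PSME2 by 0.70. Of 11 class II genes listed, 4 could be tested and 0 passed by edgeR (0 at an unadjusted p under 0.05), DESeq2 or limma-voom, with CIITA at 0.378 CPM untreated and 0.443 CPM with IFNB.

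Of 16 chemokines and cytokines tested 11 rose (median 1.33). CXCL11, which shares the receptor of CXCL10, went from 0.138, 0.0515, 0 and 0.103 CPM to 6.89, 6.35, 8.21 and 6.94 CPM and rose by 6.60. The B cell factor TNFSF13B rose by 4.31 and the death ligand TNFSF10 (TRAIL) by 5.53, from 0.401 ± 0.208 to 19.7 ± 4.08 CPM. Of 9 interferon genes listed, only IFNE had enough counts to test and it did not pass (edgeR adjusted p = 0.833), and IFNB1 itself had 1 count over the 8 libraries. In the list of TRAIL, caspases and cell death effectors 13 of 18 tested genes rose. XAF1, a pro-apoptotic antagonist of XIAP, went from 0.231, 0.155, 0.569 and 0.360 CPM to 66.3, 45.7, 52.9 and 46.3 CPM and rose by 7.203 (SE 0.21, edgeR adjusted p = 3.45e-13). The lipid scramblase PLSCR1 rose by 2.76. Of 11 ligands of T and NK cells tested 5 rose. CD274 (PD-L1) went from 37.0, 35.5, 29.8 and 36.2 CPM to 71.2, 71.3, 65.2 and 82.2 CPM (log2 1.07), PDCD1LG2 (PD-L2) rose by 1.02, the signal CD47 by 0.66 and galectin-9 (LGALS9) by 3.36.

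**Figure D4:**
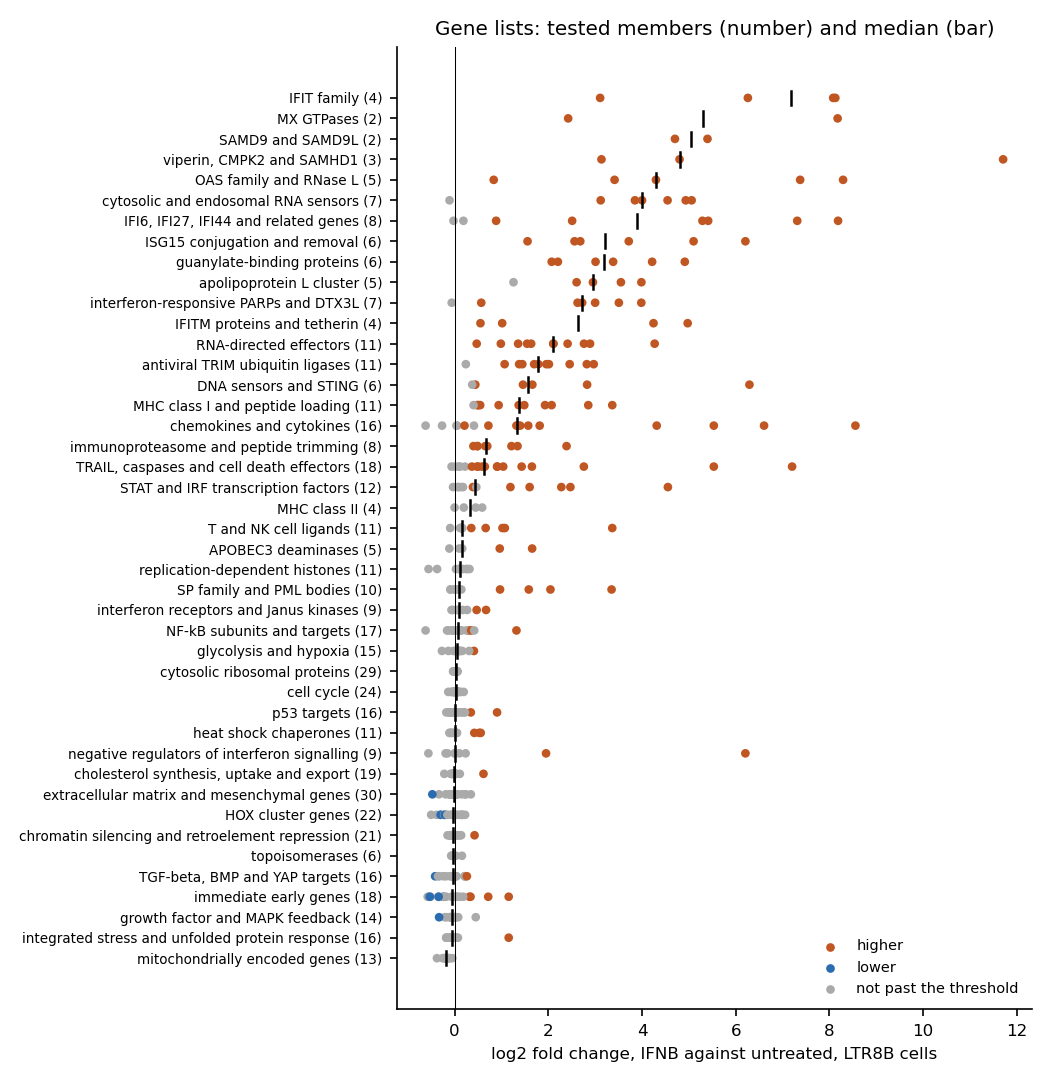
Each row is a gene list with the number of members tested in brackets, each point a member at its log2 fold change with IFNB in LTR8B cells, and each black bar the list median. Orange points passed the threshold as higher, blue as lower and gray did not pass. The IFIT family has the highest median at 7.17, and lists for the cell cycle, ribosomal proteins and topoisomerases lie near 0 with 0 members past the threshold.

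Of 10 genes for the SP family and PML nuclear bodies, 4 rose and 6 did not pass, SP140 among the latter. SP140 (ENSG00000079263.19, chr2:230203110-230313215, plus strand) had a mean of 1.25 ± 0.570 CPM untreated and 1.23 ± 0.288 CPM with IFNB (SD, n = 4 in each group), and the groups overlapped (log2 fold change -0.09, SE 0.28, edgeR adjusted p = 0.961). Its 87 counts over the 4 treated libraries and 117 over the 4 untreated limit the precision of this value. Its neighbours in the same stretch of chromosome 2 did rise. SP110 (chr2:230167293-230225729, minus strand) went from 16.1, 16.2, 16.3 and 19.5 CPM to 172, 177, 183 and 162 CPM, an increase of 3.35 on the log2 scale with an SE of 0.072 (edgeR adjusted p = 4.15e-16). A listed promoter of SP110 overlaps that of SP140, and another does not. SP140L (chr2:230327184-230403732, plus strand) went from 38.8, 44.1, 40.4 and 44.5 CPM to 75.6, 85.2, 82.1 and 85.3 CPM (log2 0.97, edgeR adjusted p = 1.24e-08), and SP100 (chr2:230415942-230544090, plus strand) from 92.9, 92.9, 94.2 and 99.9 CPM to 294, 279, 296 and 269 CPM (log2 1.58, edgeR adjusted p = 1.39e-13). PML, the scaffold of these bodies, rose by 2.04 from 51.6 ± 5.57 to 213 ± 14.9 CPM. SP140, SP140L and SP110 are related in sequence and may share reads. The spans of SP140 and SP110 also overlap on opposite strands, and whether the counting used strand is not given.

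Outside the interferon pathway the counts are read against the 4.5% of all genes tested that passed, and in lists with 1 or 2 calls they are not read as results about the list. Of 17 NF-kB subunits and targets tested 3 rose, namely CCL2 (log2 1.32), BIRC2 (log2 0.35) and NFKBIA (log2 0.29). The call of NFKBIA, the inhibitor of NF-kB, ended without untreated replicate 4 (edgeR adjusted p = 0.0538) or IFNB replicates 1 (0.0625) or 3 (0.0512). Immediate early genes moved both ways, with 4 higher and 3 lower of 18 tested. KLF6, a zinc finger factor, rose from 478, 444, 433 and 479 CPM to 765, 735, 731 and 781 CPM (log2 0.72, edgeR adjusted p = 1.56e-08), ATF3 rose by 1.15 and IER2 by 0.34. EGR1 went from 7.01, 7.52, 7.40 and 6.74 CPM to 4.64, 5.23, 5.04 and 4.93 CPM and fell by 0.53 (edgeR adjusted p = 0.00536), and IER3 fell by 0.24. JUNB (log2 0.32) and MYC (log2 -0.34) were the other 2 of these 7 and are named because they complete the count. The YAP target CCN1 went from 559 ± 25.6 to 419 ± 61.8 CPM and fell by 0.42.

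The mitochondrially encoded list had 0 of 13 members called by edgeR (6 had an unadjusted p under 0.05), 0 by limma-voom and 1 by DESeq2, although all 13 fold changes were negative, with a median of -0.17. All 37 mitochondrially encoded genes in the table together took 3.86% to 4.55% of counts in the untreated libraries and 3.35% to 3.97% with IFNB, and the groups overlap through IFNB replicate 4. The library numbered 4 had the highest share in each group, 4.55% untreated and 3.97% with IFNB. In the lists for the cell cycle (24 tested), cytosolic ribosomal proteins (29), topoisomerases (6) and replication-dependent histones (11) 0 members passed by edgeR, with medians of 0.02, 0.03, -0.03 and 0.11 in that order. At an unadjusted p under 0.05 by edgeR there were 3, 0, 1 and 2, and the other tools called 0 except for the topoisomerase gene TOP1, which DESeq2 called higher. Of 21 chromatin silencing genes 1 passed, near the share among all genes, which was the DNA methyltransferase DNMT3B (log2 0.42, edgeR adjusted p = 0.00864). Of 11 heat shock genes tested 3 rose and 8 did not pass (median 0.01), namely DNAJA1 (log2 0.56), HSPA1B (log2 0.42) and HSPA1A, and HSPA1B may share reads with its near-identical copy HSPA1A. HK2, the first enzyme of glycolysis (log2 0.41), was the 1 of 15 glycolysis and hypoxia genes that passed. In the p53 list 2 of 16 passed, and PMAIP1, which encodes the BH3-only protein NOXA, rose (log2 0.91). BBC3, which encodes the BH3-only protein PUMA, completes the p53 list at 0.35, but its call ended without untreated replicates 1 (edgeR adjusted p = 0.0641) or 4 (0.0961) or IFNB replicates 1 (0.103), 2 (0.114) or 3 (0.114). The sterol carrier STARD4 (log2 0.61) was the 1 gene of 19 past the threshold in the cholesterol list and was lost without untreated replicates 1 (edgeR adjusted p = 0.0637) or 4 (0.0533) or IFNB replicates 3 (0.0581) or 4 (0.0689). Of 22 HOX genes tested, HOXB2 (log2 -0.30) and HOXB9 (log2 -0.21) fell. The call of HOXB2 held only without IFNB replicate 1 or untreated replicate 1, with edgeR adjusted p from 0.0533 to 0.176 without each of the other 10 libraries, and that of HOXB9 only without untreated replicate 3, with edgeR adjusted p from 0.0666 to 0.163 without each of the other 11.

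Calls among growth factor feedback genes (1 of 14), matrix and mesenchymal genes (1 of 30) and TGF-beta and YAP genes (2 of 16) stand beside the 4.5% of all genes. ERRFI1, an inhibitor of EGFR, was the 1 of 14 feedback genes that fell (log2 -0.33), and it was lost without untreated replicate 1 (edgeR adjusted p = 0.0591) or IFNB replicates 2 (0.0595) or 3 (0.0682). SNAI2, a repressor of epithelial genes, was the 1 of 30 genes that fell in the matrix and mesenchymal list (log2 -0.48), and it was lost without untreated replicates 1 (edgeR adjusted p = 0.0892) or 4 (0.102) or IFNB replicates 2 (0.102) or 3 (0.111). The Hippo kinase LATS2 rose (log2 0.26) and was lost without IFNB replicate 1 (edgeR adjusted p = 0.0567). The stress chaperone HSPA1A (log2 0.52) was lost without untreated replicates 1 (edgeR adjusted p = 0.108) or 3 (0.101), IFNB replicates 2 (0.119) or 3 (0.0995), or GFP IFNB replicate 1 (0.0533). The lysosomal protein CD68, a macrophage marker that many cells express, rose from 89.9, 103, 94.6 and 108 CPM to 113, 116, 133 and 125 CPM (log2 0.30) and was lost without untreated replicate 1 (edgeR adjusted p = 0.0650) or IFNB replicate 3 (0.0641).

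The dendritic protein gene MAP2 rose by 1.03 from 9.82 ± 0.758 to 20.2 ± 2.37 CPM, and it is the only one of 5 tested neural markers past the threshold. The summed level of the 8 neural markers was 147 to 173 CPM untreated and 181 to 215 CPM with IFNB, of which TUBB3 made up 106 and 130 CPM (edgeR adjusted p = 0.0909), and SOX10 and OLIG2 were at 0 counts in all 8 libraries.

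The 79 lower genes had a median level of 32.9 CPM untreated and 25.2 CPM with IFNB, and the median untreated level of all genes tested was 17.5 CPM. The 10 largest decreases by the rule were mostly at lower levels, and only GPATCH11 among them was above 10 CPM. GPATCH11 (ENSG00000152133.15, chr2:37084451-37099244, plus strand), which encodes a G-patch domain protein, went from 56.6, 46.2, 53.1 and 47.8 CPM to 28.5, 25.9, 29.3 and 27.2 CPM. The groups were far apart relative to their spread (log2 fold change -0.88, SE 0.072, edgeR adjusted p = 9.8e-08), and it was past the threshold without each library in turn. In GFP cells it went from 59.6 and 58.5 to 28.8 and 29.6 CPM (log2 -1.02, edgeR adjusted p = 1.7e-06). GPATCH11 ends inside the end of EIF2AK2, which lies on the opposite strand at chr2:37099210-37157065 and rose by 2.41. Whether the counting used strand is not given in the sources used here.

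To see whether other genes in this arrangement moved, the genes whose 3′ end lies within 5 kb of the 3′ end of a gene raised at least 4-fold were listed, after GPATCH11 had been seen. Apart from GPATCH11 there were 17, of which 1 fell, 12 did not pass and 4 rose (ATXN1, IFITM3, TAP1 and PSMB8-AS1), and 11 of the 17 fold changes were negative with a median of -0.04. Over all genes tested 0.482% fell and 4.01% rose. TAP1 and PSMB8-AS1, both raised at least 4-fold, were listed as each other's neighbour. These counts are small and are not read as results about the arrangement. The lower gene was ACO1, an iron-responsive aconitase that ends 936 bases from the end of RIGI, at 178 ± 14.4 CPM untreated and 152 ± 5.57 CPM with IFNB (SD, n = 4 in each group, log2 fold change -0.23, edgeR adjusted p = 0.0305). The reason for these values was not tested.

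FLG, the epidermal filament protein filaggrin, fell by 0.63 from 8.35, 8.29, 9.44 and 8.999 CPM to 5.87, 5.79, 5.77 and 5.25 CPM (edgeR adjusted p = 0.00239). The other 7 of the 10 largest decreases were at 7.15 CPM or less in every library, and each lost its call without at least 1 library. The readthrough transcripts JMJD7-PLA2G4B (log2 -1.08) and MSH5-SAPCD1 (log2 -1.04) may share reads with their parent genes and TSIX (log2 -0.81) with its antisense partner, so these 3 are uncertain. JMJD7-PLA2G4B was lost without IFNB replicate 2 (edgeR adjusted p = 0.0538). MSH5-SAPCD1 was lost without untreated replicates 1 (0.104) or 4 (0.0714) or IFNB replicates 1 (0.0771), 3 (0.0740) or 4 (0.0992). TSIX was lost without untreated replicate 3 (0.146) or IFNB replicates 1 (0.0850), 3 (0.0738) or 4 (0.120). The pseudogene FAR2P2 (log2 -0.96) was lost without untreated replicates 1 (0.0946) or 3 (0.115), IFNB replicates 1 (0.0776), 2 (0.106) or 3 (0.107), or GFP untreated replicate 1 (0.0518). With the replicate block over all libraries FAR2P2 (edgeR adjusted p = 0.0554) and MSH5-SAPCD1 (0.0541) were also lost, and the others of these 7 were not. The transcriptional coactivator EYA1 (log2 -0.67) was lost without untreated replicates 1 (0.0545), 2 (0.0588) or 4 (0.062) or IFNB replicates 1 (0.0764), 2 (0.114) or 4 (0.104). The minor spliceosome gene CENATAC (log2 -0.57) was lost without untreated replicates 1 (0.0827) or 3 (0.0580) or IFNB replicate 1 (0.0943). The metalloprotease ADAM8 (log2 -0.53) was lost without untreated replicates 1 (0.0798) or 2 (0.111) or IFNB replicates 1 (0.0522), 3 (0.101) or 4 (0.103). By limma-voom FAR2P2 (limma-voom adjusted p = 0.0769), MSH5-SAPCD1 (0.0604), TSIX (0.0604) and ADAM8 (0.0514) were lost, and by DESeq2 ADAM8 (DESeq2 adjusted p = 0.0557). Over the 8 LTR8B libraries alone TSIX (edgeR adjusted p = 0.0516), EYA1 (0.0568) and ADAM8 (0.0528) were lost.

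Raised genes lay close together on the genome. With GENCODE release 29 positions, 219 of 656 raised genes (33.4%) had another raised gene within 100 kb, against 11.1% of all 16169 tested genes with a position and 13 of 78 lower genes (16.7%). They formed 22 groups of 3 or more. The one with the most members spans the guanylate-binding proteins at chr1:88852932-89426243, where 10 of 12 tested genes rose, among them GBP1, GBP3, GBP4 and GBP5. At chr10:89213569-89421001, 5 of 6 tested genes rose, which are the lysosomal lipase LIPA and the 4 IFIT genes, and 0 fell. Others hold TAP1, PSMB8 and PSMB9 at chr6:32821833-32859585 (5 of 6), OAS1, OAS2 and OAS3 at chr12:112906777-113011723 (3 of 3), IFITM1, IFITM2 and IFITM3 at chr11:307631-327537 (3 of 4), and SP140L and SP100 with the pseudogene RN7SL834P at chr2:230327184-230544090 (3 of 4). Overlapping genes within a group can share reads. Of the raised genes 92.4% are protein coding, against 81.0% of the lower and 79.95% of all tested.

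The same treatment was given to GFP cells, where 524 genes passed the threshold (3.2%), 502 higher (3.06%) and 22 lower (0.134%), with 2 libraries per group rather than 4. The 2 responses share no library. The difference between them was tested gene by gene, and 0 of 16393 genes (0.0%) passed by edgeR or limma-voom. Of these 16393 genes, 489 (2.98%) had an unadjusted p under 0.05 by edgeR and 517 by limma-voom. With no difference in any gene the share would be near 0.05, and the edgeR share was below that. It was above 0.05 with the replicate block (1027 of 16393 genes) and without LTR8B untreated replicate 2 (1129 of 16450). Without each other LTR8B library in turn, 343 to 757 genes had such a p, a share below 0.05. The share therefore depends on the setting and is not read as absence of a difference. DESeq2, run on all 60669 genes with its own filter on low counts, also called 0, with 407 at an unadjusted p under 0.05. The smallest edgeR adjusted p was 0.996. Without GFP untreated replicate 1, 1 gene passed, NPIPA9 of a multicopy gene family (difference log2 -3.01, edgeR adjusted p = 0.0320), named because it makes up the count. Of the 737 genes past the threshold in LTR8B cells, 463 also passed in GFP cells in the same direction, which is 62.8% of the LTR8B genes and 88.4% of the GFP genes, and 0 passed in opposite directions. Of the 129 genes raised at least 4-fold in LTR8B cells 122 passed in GFP cells, and 655 of 658 raised genes had the same sign there. Of the 79 lower genes 72 had the same sign and 10 (12.7%) passed. A gene past the threshold in 1 line and not in the other is therefore not shown to differ.

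Values for single genes in the 2 lines stand side by side below. IFIT2 reached 3048 and 2752 CPM in the treated GFP libraries against 2509 to 2585 CPM in LTR8B cells, and the difference of the responses was -0.18 on the log2 scale (SE 0.12, edgeR unadjusted p = 0.135). RSAD2 reached 162 and 140.2 CPM, with a difference of -0.75 (SE 1.37, edgeR unadjusted p = 0.593), and its untreated libraries held few counts. XAF1 reached 66.4 and 70.3 CPM (difference -1.25, SE 0.67, edgeR unadjusted p = 0.0820). SP110 rose by 3.35 in LTR8B cells and by 2.95 in GFP cells, a difference of 0.40 (SE 0.12, edgeR unadjusted p = 0.00330) that did not pass after adjustment. Mean SP110 levels were 17.0 CPM untreated and 174 CPM with IFNB in LTR8B cells, against 26.2 and 202 CPM in GFP cells. The level in LTR8B cells was thus the lower one both untreated and with IFNB.

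The 5 genes with the smallest unadjusted p for the difference were 2 genes without a symbol, the histone methyltransferase KMT2D, the transcription factor ZBTB20 and the pseudogene LSP1P4. KMT2D, at 159, 169, 156 and 159.8 CPM untreated and 136, 138, 139 and 134 CPM with IFNB in LTR8B cells, fell there by 0.23 (edgeR adjusted p = 0.00502), and in GFP cells it was at 138 and 133 untreated and 143 and 146 CPM with IFNB (log2 fold change 0.09). The difference was -0.33 (SE 0.08, edgeR unadjusted p = 0.00104) and did not pass after adjustment. ZBTB20 had log2 fold changes of -0.18 in LTR8B and 0.48 in GFP cells, and LSP1P4 of -0.32 and 0.47. ENSG00000284946.1 had 0.16 and -0.76, and ENSG00000261611.6 had 0.31 and -2.40.

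**Figure D5:**
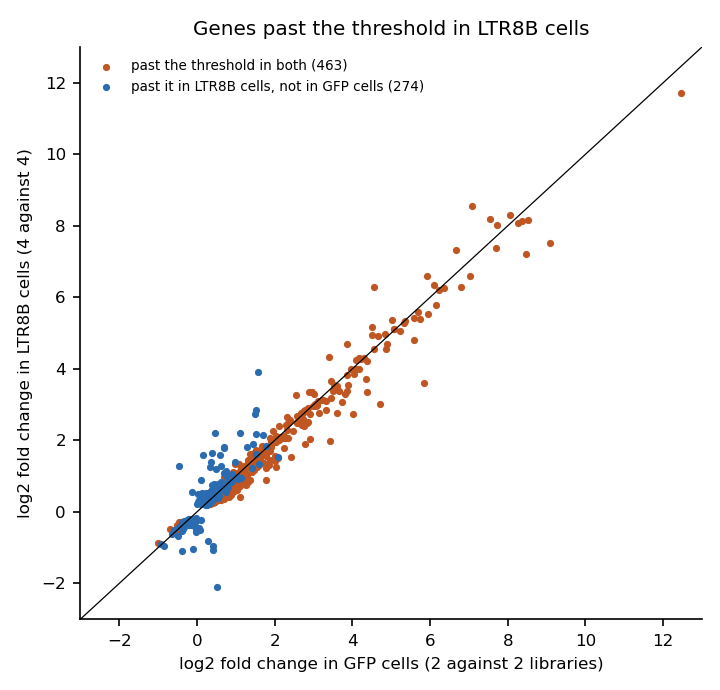
Each point is 1 of the 737 genes past the threshold in LTR8B cells, with its log2 fold change with IFNB in GFP cells (2 against 2 libraries) on the horizontal axis and in LTR8B cells (4 against 4) on the vertical axis; the line marks equal values. The 463 orange points also passed in GFP cells and the 274 blue ones did not. The strongest responses lie along the line, and the blue points cluster mostly near 0. Of the 129 genes raised at least 4-fold in LTR8B cells 122 are orange, and the rest are blue points far above 0 on the vertical axis.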

How the data were processed

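RNA-seq of 12 libraries was analysed from the raw counts per gene, whole numbers, that the authors deposited as 1 table for the series; a second deposited table of scaled counts was not used. Per the submitters' processing notes, Salmon 0.13.1, DESeq2 1.38.3 and hg38 were used, without their role or order. Neither a strand setting nor an annotation release is given in the sources used here. Genes passed edgeR's filterByExpr (minimum count 10, total 15), TMM scaling was applied, and edgeR 4.0.16 (R 4.3.3) fitted robust quasi-likelihood models with 4 group means over all 12 libraries. The contrasts were IFNB against untreated in LTR8B cells, the same in GFP cells, and their difference. Each SE was taken from the test of its own contrast, as the absolute log2 fold change over the square root of the F statistic. The SE of a difference is therefore not combined from those of the 2 responses. A gene past the threshold has a Benjamini-Hochberg adjusted p under 0.05 over all 16393 genes. Alternatives were DESeq2 1.42.0, limma-voom (limma 3.58.1), RLE scaling, other filters, a replicate block, the 8 libraries alone, a test against a 1.5-fold change and leaving out each library. On counts simulated for the LTR8B comparison (16032 genes tested), 85% of 100 genes changed by 1 on the log2 scale and 65% of 100 changed by 0.5 were recovered, with 7 false calls. The simulation gave every gene the same spread beyond counting error and no shifts shared by genes within a library. These rates therefore need not hold for the real counts. Positions and exon lengths came from GENCODE release 29 and promoters from RefSeq. Genes were named by rule (the 10 largest changes each way above 1 CPM without overlap, up to 4 per list by p, the SP family, the 10 highest levels, and the 5 smallest p for the difference), and some genes it names are not reported here. Members and lists were chosen with earlier results of these data known.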

Additional observations from a re-analysis of the deposited data

Results flagged for a closer look

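In 252 groups of 4 libraries, 15 had 1 library far from the other 3 (5.95%, and chance flags about 1 in 20). The flagged library was IFNB replicate 4 for ISG15 (179 CPM, against 271 to 284), IFI6 (165 CPM, against 227 to 235), NLRC5 (71.2 CPM, against 86.4 to 88.9), ZNFX1 (487 CPM, against 519 to 525), IFIT3 (1661 CPM, against 1682 to 1686) and FLG (5.25 CPM, against 5.77 to 5.87), below the others each time. Untreated replicate 4 was apart for SP110 (19.5 CPM, against 16.1 to 16.3), CCN1 (597 CPM, against 542 to 549.6), BBC3 (38.4 CPM, against 43.2 to 43.8) and APOL3 (0.103 CPM, against 0.507 to 0.569). Both libraries also lie at one end of the second principal component, with IFNB replicate 3 at the other. Untreated replicate 3 was apart for TSIX (3.68 CPM, against 2.35 to 2.42) and was the only untreated library with RSAD2 counts (0.100 CPM), as untreated replicate 2 was for GBP1P1 (0.0515 CPM). IFNB replicate 1 was lowest for APOL2 (109 CPM, against 123 to 124) and highest for ENSG00000261611.6 (2.40 CPM, against 0.976 to 1.17). The cause of these values was not tested.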

How the results depend on the processing

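The 737 genes past the threshold in LTR8B cells were 793 by DESeq2 (run on all genes in the table), 710 by limma-voom and 927 without a low-count filter, and 720, 696 and 705 of these were among the 737. Against a 1.5-fold change 243 passed, 242 higher and 1 lower, GPATCH11. The number lower (79) was 165 without the filter, and with a replicate block 223 over all libraries and 220 over the 8 LTR8B libraries. Without 1 library at a time it was 40 to 85. The share higher among calls was 89.3%, and 78.6% with the block and 82.2% without the filter. The difference between the lines (0 genes) gave 13 genes without the filter, 4 with the block (H3P6, MIR3648-2 and 2 genes without a symbol) and 0 to 1 without 1 library at a time. The cause of these shifts was not tested beyond the filter and test that define them. Deviations of same-numbered LTR8B libraries from their group means correlated at 0.164, 0.125, 0.0375 and 0.157, and those of differently numbered ones at -0.122 to 0.0525. Untreated replicate 3 correlated about equally with IFNB replicates 3 (0.0375) and 4 (0.0397). The labels do not say whether equal numbers mark a shared culture, so the main fit did not pair the libraries. Of 126 named genes 121 passed, 104 of them without each library in turn, and 0 changed direction. Depth limits genes with few untreated counts, whose fold changes depend on the prior count.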
